A study of Mus musculus with 10 samples.

Results

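The BCL2 family decides whether a cell keeps its mitochondria intact or releases the proteins that activate caspases, and the 10 genes described here are the members usually measured for that balance. They were chosen by symbol, matched to the gene identifiers of the deposited count tables through the RefSeq gene table of GRCm38.p6, and all 10 were found among the 46152 genes counted. The selection is by name, and earlier results of these data were known when it was made. The genes fall into 3 roles. The anti-apoptotic members are Bcl2, Bcl2l1 and Mcl1, which hold the death proteins in check at the outer mitochondrial membrane. The effectors are Bax and Bak1, which form pores in that membrane. The BH3-only members are Bcl2l11, Bad, Bid, Bbc3 and Pmaip1, which sense stress or the loss of growth factor and either block the survival proteins or engage the effectors. In macrophages and microglia, signalling through the CSF1 receptor is a survival signal, and the BH3-only protein BIM (Bcl2l11) and the survival protein MCL-1 (Mcl1) are among the family members known to respond when growth factors are withdrawn.

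Microglia were isolated from the brains of C57BL/6J mice, aged 8 to 12 weeks per the methods of the study, after 8 days of daily oral gavage. The GW2580 group (n = 5) received 80 mg/kg/d of GW2580, an inhibitor of the CSF1 receptor kinase, in 0.1% Tween 80 and 0.5% hydroxymethyl propyl-cellulose, and the Vehicle group (n = 5) received that carrier alone. Each group had 2 male and 3 female mice, with 1 library per mouse, so the p-values reflect the spread between mice. Cells were released with Accutase, enriched on Percoll and selected on CD11b, a marker that monocytes and granulocytes also carry. In such bulk RNA, fewer cells of a type and less RNA per cell cannot be told apart.

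The libraries held 12550418 to 26079343 fragments assigned to genes, and 28419 genes passed the filter of more than 1 CPM, a fragment count scaled to the size of the library, in at least 3 libraries. All 10 family members passed it. Vehicle 5 stood apart. On the first principal component, which held 47.1% of the variance, it lay on the side of the GW2580 libraries at -77.9, whereas GW2580 5 lay among the Vehicle libraries at 45.8 and GW2580 2 was near the middle at 5.20. Vehicle 5 also had the highest summed ependymal and choroid plexus markers (26870 CPM, against 1236 to 3017 in the other Vehicle libraries and 165 to 3552 with GW2580). Vehicle 2 had the highest oligodendrocyte markers (15385 CPM, followed by 3777 in Vehicle 5, and 164 to 1505 with GW2580). Monocyte and granulocyte markers ranged from 563 in Vehicle 5 to 27910 CPM in Vehicle 1, and from 703 to 12266 CPM with GW2580. By the rule used below, 6.7% of all genes were called lower with GW2580. Of the tested markers, 5 of 6 ependymal and choroid plexus, 4 of 8 oligodendrocyte and 4 of 10 lymphocyte markers were called lower. So were 2 of 8 astrocyte, 2 of 9 neuron and 1 of 11 monocyte and granulocyte markers. Called higher were 1 of 12 microglia and 1 of 6 border macrophage markers. The part of these cells in the results was not tested. Microglia markers summed to 15120 to 37927 CPM with Vehicle and 20020 to 66046 CPM with GW2580, although Trem2 had only 2 fragments over all libraries, which is unusual for microglia, so that a gap in the annotation or counting cannot be told apart from a lack of its RNA. The share of uniquely aligned fragments off annotated exons was 47.7% to 59.8% with Vehicle and 47.1% to 70.8% with GW2580. The main results are also given without these libraries.

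Sequence upstream of Bad, Bax and Bcl2l11, the members on which the comparisons of roles turn, is shown first, since several death genes of the family are controlled in part by transcription. Of the 10 genes, 9 had an entry in the RefSeq promoter table of GRCm38.p6, and the 250 bases before the first listed start were searched on both strands for the GC box GGGCGG, the FOXO motif TGTTTAC, the cAMP response core TGACGT, the E-box CACGTG, the PU.1 motif GAGGAAGT and the TATA box TATAAA. Capitals mark matches in either orientation. For Bad, on the plus strand of chromosome 19, the 129 bases at chr19:6941732-6941860 are shown, because the rest of the window lies on an exon of Gpr137. Gpr137 is transcribed away from Bad on the other strand. For Bax, on the minus strand of chromosome 7, all 250 bases at chr7:45466899-45467148 are shown, of which the last 5 lie on its own annotated exon. For Bcl2l11, on the plus strand of chromosome 2, the whole window lies on an exon of the neighbouring gene Acoxl, so 25 bases around the FOXO match are shown, at chr2:128125802-128125826.
Bad: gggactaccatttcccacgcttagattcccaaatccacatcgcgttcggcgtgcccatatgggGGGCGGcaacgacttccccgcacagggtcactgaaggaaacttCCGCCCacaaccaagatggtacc
Bax: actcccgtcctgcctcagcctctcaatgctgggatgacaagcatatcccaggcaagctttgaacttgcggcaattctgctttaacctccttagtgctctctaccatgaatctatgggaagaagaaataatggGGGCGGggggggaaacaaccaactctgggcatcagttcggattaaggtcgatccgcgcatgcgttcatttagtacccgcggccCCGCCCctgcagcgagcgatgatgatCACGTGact
Bcl2l11: gacactaggGTAAACAcgccggggt
The GC box was present in 7 of the 9 member windows, against 32.7% of all 32851 windows in the table. The Bcl2l1 and Mcl1 windows lie wholly on annotated exons, and the Bid window does so over 201 of its 250 bases. For Bcl2, Mcl1 and Bbc3 the bases after the listed start were found in no reference transcript of the gene, so these starts are uncertain. The FOXO motif occurred in the Bcl2l11 window alone among the members (3.17% of all windows), the E-box in the Bax window alone (6.02%), the cAMP response core in the Bcl2 window alone (6.47%) and the PU.1 motif in the Bak1 window alone (2.44%). None of the 9 held the TATA box, which 12.4% of all windows did. GC content was 62.8% for Bad, 54% for Bax and 72% for Bcl2l11, against a median of 52.4% over all windows. These matches describe the letters only and say nothing of binding in these cells.

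Among the 10 genes, Bad was the one called different between the groups, by the rule of the study, which asks for more than a 2-fold difference with an unadjusted p under 0.05. That is 1 of 10, where 10.7% of all genes tested were called and 6.7% were called lower (7.3% among the 7580 genes with a mean of at least 20 CPM). That was 1905 genes lower and 1141 higher, a split that depended on the scaling, since with library size alone it was 875 lower and 2123 higher and the median log2 fold change of all genes was 0.23. Bad was called under both scalings. These calls come from a refit of the deposited counts, and the study itself reported fewer genes as different. At an unadjusted p under 0.05 without a limit on the fold change there were 2 members, Bad and Bcl2l11, against 14.7% of all genes. With Benjamini-Hochberg adjustment over all genes, 0 genes passed an adjusted p of 0.05 in edgeR's quasi-likelihood test, 4186 had an unadjusted p under 0.05, limma-voom called 0 and DESeq2 called 177. The median log2 fold change was -0.08 for the 3 anti-apoptotic members, -0.85 for the 2 effectors and 0.21 for the 5 BH3-only members, beside -0.03 for all genes tested. The first of these turned on 1 library, since without Vehicle 5 the medians were 0.50, -1.05 and 0.09.

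**Figure D1:**
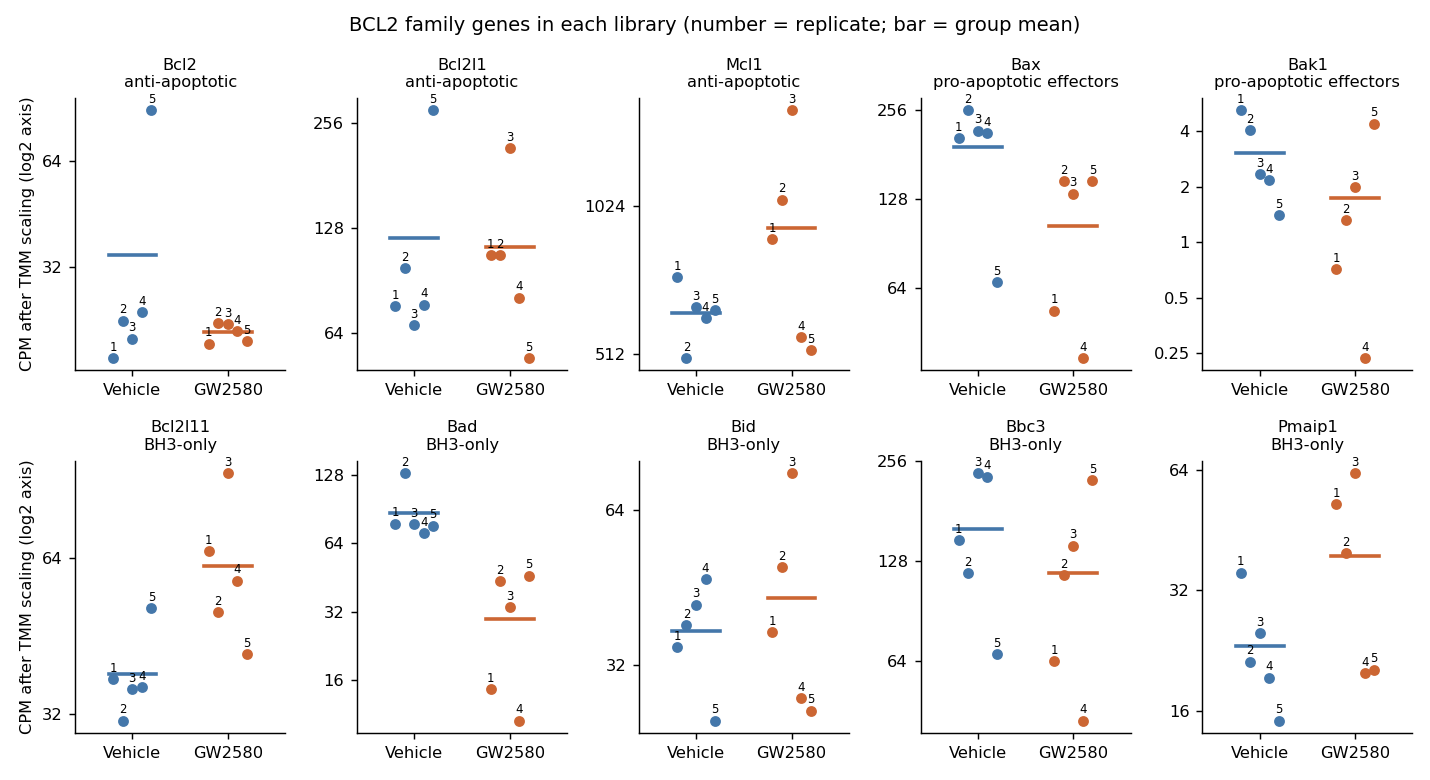
Level of each BCL2 family gene in each library, as CPM after TMM scaling on a log2 axis, with the replicate number above each point and a bar at the group mean (n = 5 per group). Bad is the gene whose GW2580 libraries (10.7 to 46.0 CPM) all sit below the Vehicle libraries (70.7 to 130.0 CPM), and Vehicle 5 stands high for Bcl2 and Bcl2l1 and low for Bax.

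Of the anti-apoptotic genes, none was called. Bcl2, the founding survival member, measured 17.7, 22.5, 20.05, 23.8 and 89.1 CPM in Vehicle 1 to 5 and 19.4, 22.2, 22.0, 21.1 and 19.7 CPM in GW2580 1 to 5. The groups overlapped, and Vehicle 5 alone was far above the other 9 libraries. The log2 fold change of -0.73 (SE 0.43, adjusted p = 0.433 in edgeR's quasi-likelihood test) came to -0.01 without Vehicle 5.

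Bcl2l1, which encodes BCL-XL, had the same high library. It measured 76.7, 98.5, 67.7, 77.3 and 279.3 CPM in Vehicle 1 to 5 and 107, 107, 218, 81.0 and 54.4 CPM in GW2580 1 to 5. Its log2 fold change was -0.08 (SE 0.48, adjusted p = 0.949), against 0.50 without Vehicle 5, so no direction can be given for this gene. Vehicle 5 was also the library of highest choroid plexus and ependymal markers. Its summed erythroid markers (2088 CPM, against 37.6 to 389 CPM elsewhere) and lymphocyte markers (536 CPM, against 54.5 to 173 CPM) were the highest as well. Its microglia markers were the lowest, at 15120 CPM. The part of these cells in its Bcl2 and Bcl2l1 levels was not tested.

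Mcl1, the short-lived survival protein on which many myeloid cells depend, was by far the most counted member. Vehicle libraries measured 735, 504, 638, 606 and 629 CPM and GW2580 libraries 879, 1056, 1605, 556 and 523 CPM. GW2580 1, 2 and 3 lay above every Vehicle library, whereas GW2580 4 and 5 lay within the Vehicle range. The group means were 622 ± 82.4 and 924 ± 441 CPM (SD, n = 5 each), and the log2 fold change of 0.57 (SE 0.39, adjusted p = 0.492) did not pass the test. It was positive under all 22 alternatives, from 0.28 without GW2580 3 to 0.72.

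The effectors had lower group means with GW2580, but neither was called with all 10 libraries. Bax measured 205, 254, 217, 214 and 67.0 CPM in Vehicle 1 to 5 and 53.8, 147, 133, 37.4 and 147 CPM in GW2580 1 to 5. Every GW2580 library lay below Vehicle 1 to 4, and Vehicle 5 lay among the GW2580 libraries. For Bax the log2 fold change was -0.89 (SE 0.46, unadjusted p = 0.0754, adjusted p = 0.379 in edgeR's quasi-likelihood test). Without Vehicle 5 it was -1.10 with an unadjusted p of 0.0176, which met the rule, and without GW2580 5 it was -1.12 with an unadjusted p of 0.0417.

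Bak1, the other effector, was near the limit of detection. It measured 5.20, 4.06, 2.34, 2.18 and 1.40 CPM in Vehicle 1 to 5 and 0.72, 1.32, 2.00, 0.24 and 4.40 CPM in GW2580 1 to 5. The groups overlapped, with GW2580 5 above 4 of the Vehicle libraries. The log2 fold change was -0.82 (SE 0.62, adjusted p = 0.539), and it was -1.59 with an unadjusted p of 0.0174 without GW2580 5.

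The BH3-only genes differed in direction. Bad, which is held inactive by phosphorylation downstream of growth factor receptors and otherwise neutralises BCL2 and BCL-XL, was 2.92-fold lower with GW2580. It measured 78.0, 130.0, 77.9, 70.7 and 76.3 CPM in Vehicle 1 to 5 and 14.6, 43.6, 33.6, 10.7 and 46.0 CPM in GW2580 1 to 5. The groups did not overlap, which 0.985% of all genes showed in this direction, and Vehicle 5 lay with the other Vehicle libraries for this gene. The log2 fold change was -1.54 (SE 0.42, unadjusted p = 0.00257, adjusted p = 0.280 in edgeR's quasi-likelihood test). The two-sided exact permutation test gave p = 0.00794, the smallest it can give with 5 against 5.

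Bad met the rule in each of the 21 tested alternatives, which refit the same libraries, with log2 fold changes of -1.88 to -1.29. Adjusted p-values in edgeR's quasi-likelihood test ran from 0.012, without Vehicle 5 and GW2580 5, to 0.631, without GW2580 1. In DESeq2 with all libraries the adjusted p was 0.0445. Its lowest levels were in GW2580 4 and GW2580 1, which also had the largest shares of fragments off exons (70.8% and 68.0%). With that share as a term in the model the log2 fold change was -1.29 with an unadjusted p of 0.00899. The highest level was in Vehicle 2, the library of highest oligodendrocyte markers, and without Vehicle 2 the log2 fold change was -1.35 with an unadjusted p of 0.00857. The part of off-exon fragments or of oligodendrocyte RNA in the difference of Bad was not tested. Of the 1521 exon bases of Bad, 517 (34.0%) are shared with the transcript of Gpr137 that begins inside its first exon. Counting ignored strand and gave fragments lying wholly on the shared bases to neither gene, so the level of Bad rests mainly on the remaining bases. Bad also belongs to the genes of an estradiol response term that the study drew from these libraries, so its direction is not independent of that selection.

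Bcl2l11, which encodes BIM and carries the FOXO match shown above, was the member with the next smallest p. It measured 37.3, 31.1, 35.8, 36.1 and 51.3 CPM in Vehicle 1 to 5 and 66.2, 50.3, 93.6, 57.9 and 41.7 CPM in GW2580 1 to 5. GW2580 1, 3 and 4 lay above every Vehicle library, and Vehicle 5 lay above GW2580 2 and 5. The 1.62-fold higher mean (log2 fold change 0.69, SE 0.30, unadjusted p = 0.0380, adjusted p = 0.316 in edgeR's quasi-likelihood test) was under the fold limit, and the two-sided exact permutation test gave p = 0.0238. The value was positive under all 22 alternatives, and 12 of the 21 that carry a test had an unadjusted p under 0.05. These alternatives reuse the same libraries, so the counts are not independent support. Bcl2l11 shares 215 of its 11212 exon bases (1.92%) with Acoxl.

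Pmaip1, which encodes NOXA, the selective partner of MCL-1, measured 35.4, 21.3, 25.1, 19.4 and 15.2 CPM in Vehicle 1 to 5 and 52.6, 39.6, 62.8, 19.9 and 20.3 CPM in GW2580 1 to 5. As for Mcl1, GW2580 1, 2 and 3 were above every Vehicle library and GW2580 4 and 5 were not. The log2 fold change of 0.75 (SE 0.38, unadjusted p = 0.0708, adjusted p = 0.374 in edgeR's quasi-likelihood test) did not pass. Across the 10 libraries the log2 CPM of Pmaip1 and Mcl1 had a Pearson r of 0.87, a description over libraries that include both groups. The same pattern was seen outside the family, in the sum of early response genes of tissue dissociation such as Fos and Jun. That sum was 36172, 50823 and 72826 CPM in GW2580 1, 2 and 3, against 24641 to 34881 CPM with Vehicle. GW2580 4 and 5 held 22354 and 28443 CPM. The part of dissociation in the levels of Mcl1 and Pmaip1 was not tested.

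Bbc3, which encodes PUMA, ranged from 67.2 to 235 CPM with Vehicle and from 42.3 to 223 CPM with GW2580. Its groups overlapped, and the log2 fold change was -0.44 (SE 0.47, adjusted p = 0.675). Bid, which caspase-8 cleaves to link death receptors to mitochondria, ranged from 24.9 to 46.9 CPM and from 26.1 to 75.3 CPM, with a log2 fold change of 0.21 (SE 0.34, adjusted p = 0.795). Neither gene passed the test with all libraries. Single libraries moved Bbc3 from -0.22 without GW2580 4 to -0.88 without GW2580 5.

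**Figure D2:**
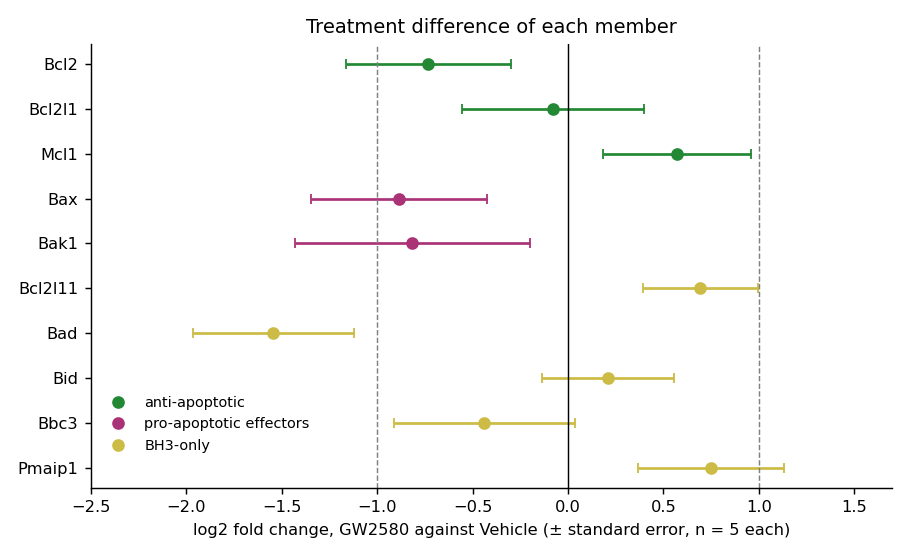
Log2 fold change of each member, GW2580 against Vehicle, with its standard error (n = 5 per group) from edgeR's quasi-likelihood model, coloured by role, and dashed lines at a fold change of 2. Bad lies beyond the lower line at -1.54, and the BH3-only genes spread from there to 0.75 for Pmaip1.

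Counts were divided by the length of the exon model, to set levels of different genes side by side. Bax and Mcl1 then stood above the other members in both groups. That length covers all annotated exons, whichever of them are used, so the order of the genes depends on it. In CPM without this division, Mcl1 exceeded Bax in 5 of 5 Vehicle libraries. Bad is divided here by all of its exon bases, although fragments lying wholly on the shared ones are not counted, and its level over the unshared 1004 bases is given as well. With Vehicle the mean levels in CPM per kb were 208 for Bax, 118 for Mcl1, 56.9 for Bad and 49.6 for Bbc3, followed by 16.3 for Bcl2l1, 9.04 for Bid, 8.77 for Pmaip1, 4.71 for Bcl2, 3.42 for Bcl2l11 and 1.501 for Bak1. Bax exceeded Mcl1 in 4 of 5 Vehicle libraries, and Mcl1 exceeded Bad in 5 of 5. Bad exceeded Bbc3 in 3 of 5. Over its unshared bases Bad averaged 86.2 CPM per kb, below Mcl1 in 4 of 5 and above Bbc3 in 4 of 5 Vehicle libraries, so the order of Bad depends on the length used. The order could not be given for Bcl2l1 and Bid (3 of 5) or for Bcl2 and Bcl2l11 (3 of 5).

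With GW2580 the order at the top was the other way round, Mcl1 at 175 and Bax at 112 CPM per kb, with Mcl1 above in 4 of 5 libraries. Bbc3 at 36.6 then stood above Bad at 19.5 CPM per kb in 5 of 5 libraries, but in 4 of 5 where Bad is taken over its unshared bases (29.6 CPM per kb). Bad and Bcl2l1 at 15.5 could not be ordered (Bad above in 2 of 5, or 3 of 5 over the unshared bases), nor could Bcl2l1 and Pmaip1 at 14.7 CPM per kb (2 of 5). Bcl2l11 at 5.53 exceeded Bcl2 at 2.84 CPM per kb in 5 of 5. Bak1 was last in both groups, at 0.858 CPM per kb with GW2580.

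The balance between survival and death genes was described within each library, as the log2 level per kb of a survival gene minus that of a death gene, with no test. For Mcl1 minus Bax the Vehicle mean was -0.69 ± 0.84 and the GW2580 mean 0.72 ± 0.91 (SD over 5 libraries). It was above 0 in 1 of 5 Vehicle libraries, which was Vehicle 5, and in 4 of 5 GW2580 libraries, all but GW2580 5. Its sign rests on the exon lengths used, which leave the difference between the groups unchanged. Mcl1 minus Bad was 1.08 ± 0.52 and 3.26 ± 1.00, and for this pair the groups did not overlap, as they did not for Bad alone. Over the unshared bases each of these differences from Bad is smaller by 0.60, which leaves the comparison of the groups as it is.

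Bcl2 minus Bcl2l11 went in the opposite direction, from 0.18 ± 0.73 with Vehicle to -0.90 ± 0.42 with GW2580, but here the groups all but touched, with -0.463 in the lowest Vehicle and -0.468 in the highest GW2580 library. Over the 21 pairs of a survival gene and a death gene, the mean difference was larger with GW2580 for 13, and the groups did not overlap for Mcl1 minus Bad and, by that margin, Bcl2 minus Bcl2l11. The pairs reuse the same genes and have no share over other gene pairs beside them, so they are not separate results. Averaged over members, the 3 anti-apoptotic genes minus the 7 pro-apoptotic genes gave 0.30 ± 0.93 with Vehicle and 0.72 ± 0.61 with GW2580. Those ranges overlapped, and Vehicle 5 held the largest value of all libraries, at 1.94. The difference between the group means was 0.42 with all libraries, 0.85 without Vehicle 2 and Vehicle 5, and 1.07 without Vehicle 5 and GW2580 5, so its size rests on these libraries.

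Among the death genes themselves, the difference was largest for the pair with the smallest p-values. Bcl2l11 minus Bad had means of -4.04 ± 0.55 in the Vehicle and -1.65 ± 1.15 in the GW2580 libraries. The groups did not overlap, as could be read from the single genes that were picked for this pair. In each library Bad remained above Bcl2l11 per kb.

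**Figure D3:**
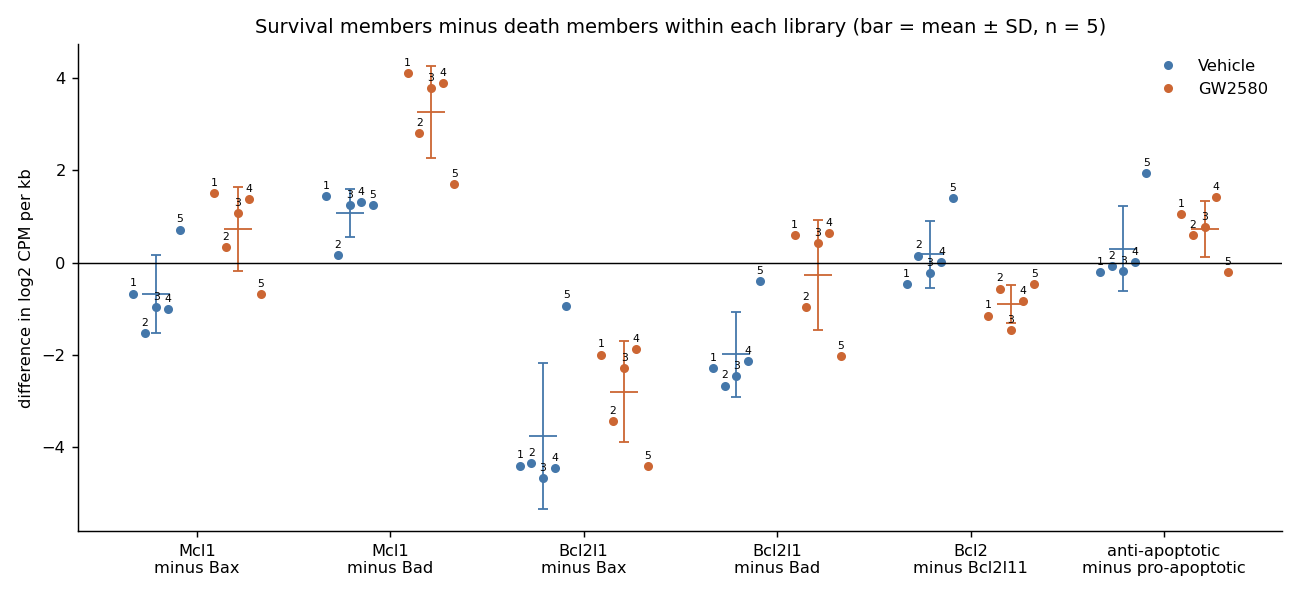
Difference in log2 CPM per kb between members within each library, with the replicate number above each point, mean and SD (n = 5 per group). For Mcl1 minus Bad the GW2580 libraries (1.71 to 4.11) all lie above the Vehicle libraries (0.16 to 1.44), whereas the mean of anti-apoptotic minus pro-apoptotic members overlaps between the groups.

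No sex-specific treatment effect was called among the members. With 2 male and 3 female mice per group, 0 members had an unadjusted p under 0.05 for the interaction of sex and treatment, where 2.52% of all genes did and 0 genes passed an adjusted p of 0.05 in edgeR's quasi-likelihood test. Bad was lower with GW2580 by 1.99 on the log2 CPM scale in males and by 1.55 in females. The largest interaction was that of the weakly expressed Bak1, at 2.34 (SE 1.19, unadjusted p = 0.0721).

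The genes whose pattern over the 10 libraries was most like that of a member were taken from the 7580 genes with a mean of at least 20 CPM, by the Pearson correlation of log2 CPM. The likeness includes the difference between the groups and whatever else the libraries share. For Bad they were Glrx5 (r = 0.995), a glutaredoxin of mitochondrial iron-sulfur cluster assembly, and Park7 (r = 0.994), the redox-sensing protein DJ-1. Both were called lower with GW2580, with log2 fold changes of -1.57 (SE 0.43) and -1.42 (SE 0.41). For Bcl2l11 they were Plekhm3 (r = 0.988), Aftph (r = 0.987) and Mapk14 (r = 0.984), the p38 alpha kinase, and for Mcl1 they were Slc41a3 (r = 0.984), Ptpn6 (r = 0.984), the phosphatase SHP-1, and Slc11a1 (r = 0.980), a phagosomal metal transporter. None of these 6 was called. Within the family the closest partners of Bax were Bbc3 and Bak1 (r = 0.87 each) and Bad (r = 0.83), and Bcl2l11 and Bad had r = -0.70.

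The wider cell death machinery was read from 7 lists of 78 genes, 77 of which were tested. Of these, 4 were called lower (5.19%, beside 6.7% of all genes) and 1 was called higher (1.30%, beside 4.01%), and the median log2 fold change was 0.02. These counts depended on the libraries. They were 5 lower and 5 higher without Vehicle 5, and 4 and 5 without Vehicle 2 and Vehicle 5. Without Vehicle 5 and GW2580 5 they were 8 and 8, and with library size alone 2 and 3. The counts over all 28419 genes also changed. Those were 1926 lower and 1777 higher without Vehicle 5, and 967 and 1491 without Vehicle 2 and Vehicle 5. Without Vehicle 5 and GW2580 5 they were 4550 and 2100, and with library size alone 875 and 2123. The list counts are therefore not read as a change in cell death genes. Tnf had 0 fragments in all libraries and was not tested, with the same doubt as for Trem2.

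Of 16 other BCL2 family genes 2 were called lower and 0 higher, with a median log2 fold change of -0.60. They were Bok, a relative of Bax, at -1.97 (SE 0.75, adjusted p = 0.281 in edgeR's quasi-likelihood test), and the survival gene Bcl2a1d at -1.11 (SE 0.46, adjusted p = 0.303). Bok rested on Vehicle 2, without which it was -0.96 and no longer called, and it was -1.93 without Vehicle 5 and -0.23 without both. With library size alone it was -1.42 and not called. Bcl2a1d is 1 of 3 near-identical Bcl2a1 copies between which reads can be split, so its value is uncertain. The copies ranged from -1.18 to -1.01, and Bcl2a1b, the highest of the list per kb, did not pass (221 ± 112 CPM with Vehicle and 97.5 ± 69.2 CPM with GW2580, adjusted p = 0.385). It met the rule without Vehicle 5 (-1.46), without Vehicle 2 and Vehicle 5 (-1.54) and without Vehicle 5 and GW2580 5 (-1.99).

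Of the 7 apoptosome genes and released mitochondrial proteins, Endog, a mitochondrial nuclease, was called lower. It measured 14.5 to 30.2 CPM with Vehicle and 4.31 to 14.4 CPM with GW2580. The groups did not overlap, which 0.985% of all genes showed in this direction. The log2 fold change was -1.30 (SE 0.39, adjusted p = 0.280 in edgeR's quasi-likelihood test). The two-sided exact permutation test gave p = 0.00794, its smallest value, which follows from groups that do not overlap. Endog was named because it was called in these libraries, so these values are not separate support. Endog is in the same study-drawn term as Bad. Htra2, the serine protease of highest level in this list, had a log2 fold change of 0.17 (SE 0.36).

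Among the 7 genes of the list of other caspases with the caspase-activated nuclease, 9 inhibitors of apoptosis, 7 death receptors and adaptors and 5 necroptosis genes, 0 were called in either direction. Their medians were 0.33, 0.30, -0.14 and 0.03. The highest genes of these lists were Casp8, the initiator caspase of death receptors (0.33, SE 0.37), Birc3, an inhibitor of apoptosis (0.68, SE 0.37), the TNF receptor Tnfrsf1a (0.64, SE 0.39) and Ripk1, the kinase at the head of necroptosis (0.88, SE 0.37). Ripk1 had an unadjusted p of 0.0316 (adjusted p = 0.304 in edgeR's quasi-likelihood test) and was under the fold limit, but it met the rule with library size alone (1.05) and without Vehicle 5 and GW2580 5 (1.09). The 3 Naip genes ranged from 0.35 to 0.99 with 0 called.

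Of the 26 genes that regulate BCL2 family genes or proteins, 1 was called higher and 1 lower. Rps6ka1, a kinase that phosphorylates BAD, averaged 351 ± 95.6 CPM in the Vehicle and 711 ± 434 CPM in the GW2580 libraries (log2 fold change 1.02, SE 0.44, adjusted p = 0.309 in edgeR's quasi-likelihood test). It was 1.15 with an unadjusted p of 0.0526 without Vehicle 2 and Vehicle 5, which missed the rule. Trp73 was at -1.66 (SE 0.66, adjusted p = 0.289), but it was highest in Vehicle 5, at 46.1 CPM, and was -0.31 without that library. The 6 Ywha genes, whose proteins hold phosphorylated BAD in the cytosol, ranged from -0.57 to 0.11, and the 3 Vdac genes of the outer mitochondrial membrane from -0.60 to -0.46, with 0 called in either family. Jun, the highest gene of the list, was at 0.67 (SE 0.48).

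**Figure D4:**
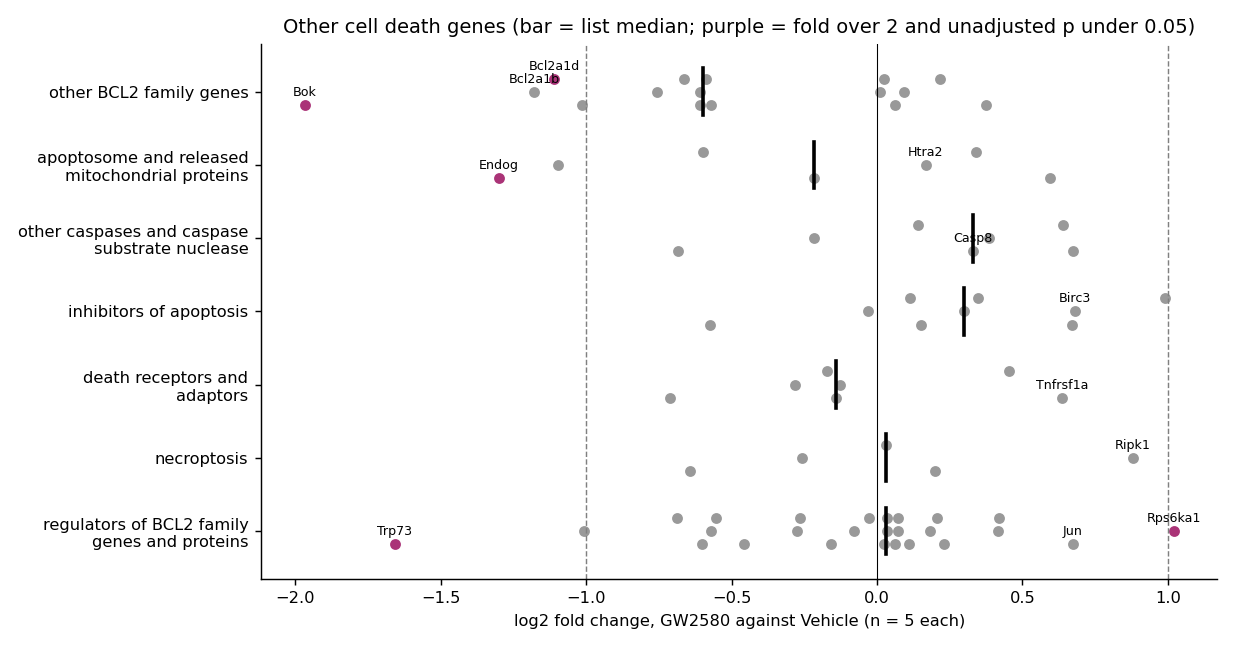
Log2 fold change, GW2580 against Vehicle (n = 5 per group), of each tested gene of the 7 other cell death lists, with a bar at the median of each list, dashed lines at a fold change of 2, and the called genes in purple. The 4 genes called lower and the 1 called higher lie in 3 of the lists, and the list medians run from -0.60 to 0.33.

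Without Vehicle 5 and GW2580 5, each of which resembled the other treatment on the first principal component, 4 members were called. That step called 23.4% of all genes. The members were Bad at -1.88, Bak1 at -1.79, Bax at -1.35 and Bbc3 at -1.08, all lower with GW2580. Leaving out libraries for that reason widens the difference between the groups by construction, and the same step raised the number of all genes called lower from 1905 to 4550. Without Vehicle 2 and Vehicle 5, the libraries high in astrocyte and oligodendrocyte markers, 2 members were called, Bad at -1.35 and Bax at -1.03, where 8.65% of all genes were called.

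**Figure D5:**
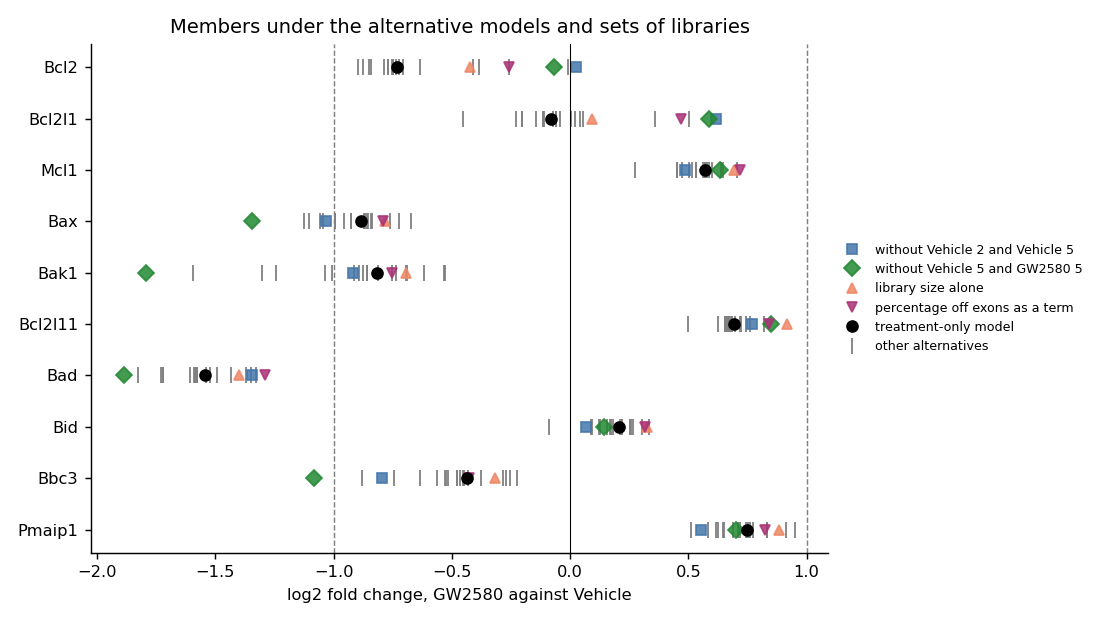
Log2 fold change of each member under the treatment-only model (black) and under 22 alternative models, scalings and sets of libraries, 4 of them marked by shape and colour and the others as grey ticks. Bad stays beyond the lower dashed line (a fold change of 2) throughout, from -1.88 to -1.29, whereas Bcl2l1 falls on both sides of 0, from -0.45 to 0.62.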

How the data were processed

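The RNA of CD11b-selected microglia from 10 mice, 5 per group by the sample labels, was sequenced as cDNA made with the SMART-Seq kit. After trimming, the authors used STAR for alignment to GRCm38, and fragments with a unique alignment were assigned to RefSeq exons on either strand. They deposited these counts per gene without normalization, and the file headers name featureCounts 1.6.3. From the counts, genes over 1 CPM in at least 3 libraries were kept and scaled with TMM factors, which ranged from 0.691 to 1.61, and treatment was tested alone with edgeR 4.0.16's quasi-likelihood F test in R 4.3.3, with Benjamini-Hochberg adjustment over 28419 genes. The rule for a call was that of the study, more than a 2-fold difference with an unadjusted p under 0.05. The standard error was the log2 fold change divided by the square root of F. Single members were also tested by a two-sided exact permutation test on log2 CPM (prior count 2) over all splits into 5 and 5. DESeq2 1.42.0, limma-voom 3.58.1, other scalings, filters and covariates, and leaving out libraries were the alternatives. Dividing Bad by its unshared exon bases was added after seeing the data.

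The members and gene lists were chosen with earlier results of these data known. The genes named are the 10 members, the called genes of the 7 other lists with the highest gene of each, and the 3 genes most like each of Bad, Bcl2l11 and Mcl1, of which 1 is not reported here. Fragments off exons, ambiguous or aligned to several places were left out. The libraries hold no molecular identifiers, so counts are not independent molecules. Promoter windows come from the RefSeq table of GRCm38.p6, in which 9 of 10 members matched. Figures were drawn with matplotlib 3.10.9 in Python 3.11.15.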

Additional observations from a re-analysis of the deposited data

Results flagged for a closer look

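In 4 of the 20 combinations of a member and a group, 1 library lay far from the other 4, judged by its gap to the nearest library as a share of the range of log2 CPM (critical value 0.71 for 5 libraries). Chance alone sets aside about 1 in 20 such groups. Of the 4 libraries 3 are the same one, Vehicle 5, which was the highest for Bcl2 (share 0.816, 89.1 CPM against 17.7 to 23.8) and for Bcl2l1 (0.735, 279.3 CPM against 67.7 to 98.5) and the lowest for Bax (0.839, 67.0 CPM against 205 to 254). The fourth is Vehicle 2, the highest for Bad (0.838, 130.0 CPM against 70.7 to 78.0). No GW2580 library stood apart by this measure for any member.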

How the results depend on the processing

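Bad was lower and met the rule in every tested alternative, and Mcl1, Bcl2l11, Pmaip1, Bax, Bak1 and Bbc3 kept their direction in all 22. The alternatives refit the same libraries and are not independent of each other. Numbers of calls moved more, and the causes were not tested. With library size alone, which raised the median log2 fold change of all genes to 0.23, 2123 genes were called higher and 875 lower, and 4 members had an unadjusted p under 0.05. Without a filter 3120 genes were called lower and 1 member had an unadjusted p under 0.05. DESeq2 gave 177 genes an adjusted p under 0.05, Bad among them (0.0445), and returned no p-value for Bcl2. With the off-exon share as a term 813 genes were called lower and 4 members had an unadjusted p under 0.05. With glial and neuronal markers as a term 965 genes were called lower and 2 members were called, where 7.47% of all genes were called. Without Vehicle 2 and Vehicle 5 it was 967 genes lower and 2 members, where 8.65% of all genes were called. Without Vehicle 5 and GW2580 5, which widens the group difference by construction, 2100 genes were called higher and 4550 lower, 5246 had an adjusted p under 0.05, 4 members were called and 5 had an unadjusted p under 0.05. Leaving out 1 library at a time gave 669 (without GW2580 1) to 1777 (without Vehicle 5) genes called higher. Those called lower numbered 1134 (without GW2580 1) to 3879 (without GW2580 5). These steps gave 1 to 3 members called, the 3 without GW2580 5, where 18.2% of all genes were called. From 1 to 5 members had an unadjusted p under 0.05. For all genes the share at that p is given under the treatment-only model alone (14.7%). The counts of members at that p under the alternatives therefore have no share beside them and are not read as results. Bcl2l1 turned positive in limma-voom (0.0052), with library size alone (0.092, and 0.22 as a difference in mean log2 CPM), with the off-exon share (0.47) or markers (0.36) as a term, without Vehicle 2 and Vehicle 5 (0.62), without Vehicle 5 and GW2580 5 (0.59), and, leaving out 1 library at a time (-0.45 to 0.50), without Vehicle 5, GW2580 4 or GW2580 5. Bcl2 was 0.024 without Vehicle 2 and Vehicle 5, and Bid ran from -0.090 without GW2580 3 to 0.33 without GW2580 4. The Bak1 interaction with sex had an unadjusted p of 0.00582 in edgeR's quasi-likelihood test without GW2580 4.

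Replicate numbers did not pair the mice. Same-numbered libraries deviated from their group means with correlations of 0.08, 0.13, -0.05, -0.07 and -0.39, and none correlated best with its own number. With the replicate number as a block, 1 member had an unadjusted p under 0.05 and Bcl2l1 was 0.056.

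Bak1, at 0.24 to 5.20 CPM, has the largest counting error of the members. Numbers of 5 mice per group limit each fold change, with standard errors of 0.30 to 0.62 on the log2 scale.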
